A study of Rattus norvegicus with 16 samples.

Results

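The 10 genes described here encode immediate early transcription factors and feedback regulators of growth signalling: *Fos*, *Fosl1*, *Jun*, *Junb*, *Atf3*, *Egr1*, *Myc*, *Ier3*, *Dusp1* and *Dusp6*. They were chosen by name and make up 10 of the 26269 gene names on a one-color Agilent rat gene expression array, read by 11 of its 30367 probes (*Egr1* has 2, the others 1 each). The samples were H35 rat hepatoma cells carrying short hairpin RNA plasmids against *Pdrg1*, a small prefoldin-like protein, or a control plasmid, with 4 biological replicates in each of 4 groups and 16 arrays in all. CN-10 was a stable clone carrying the negative control plasmid, 4-18 a stable clone carrying shRNA4, 3-44 a stable clone carrying shRNA3, and shRNA3T an uncloned pool that took up the shRNA3 plasmid and was kept under selection (labelled shRNA4-18, shRNA3-44 and shRNA3-trans for the silenced groups). All groups grew in medium with 10% serum and 2 mM glutamine, and G418 selection at 1.8 mg/ml began 48 h after transfection in every group, with a second selection at 4 mg/ml for the clones only. Each clone group is a single clone, so a difference between clones cannot be told apart from a difference between hairpins, and each group lay on a slide of its own, which leaves group and slide not separable either. The slide of 4-18 was also scanned on another day than the other 3 slides.

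Immediate early genes are transcribed within minutes of a growth factor, serum or stress signal, without new protein synthesis, mostly through the ERK, JNK and p38 MAP kinase cascades acting on serum response factor, its ternary complex partners and CREB. Products of the *Fos* and *Jun* families pair to form the AP-1 transcription factor, EGR1 binds GC-rich promoters, and MYC with its partner MAX drives growth genes. The same signals induce their own brakes, among them the dual specificity phosphatases, of which DUSP6 acts in the cytoplasm on ERK and DUSP1 in the nucleus on JNK, p38 and ERK. In liver these genes are known for their burst in the first hours of regeneration.

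The RefSeq promoter table for the GRCr8 build lists 5 of the 10 genes (*Fosl1*, *Junb*, *Egr1*, *Dusp1*, *Dusp6*). The 250 bases before the transcription start were searched on both strands for the AP-1 site TGANTCA, the cAMP response element TGACGTCA, the GC box GGGCGG, the TATA motif TATAAA, the E-box CACGTG and the CArG box, the binding element of serum response factor. Of 33469 windows of that length, 6.34% held the AP-1 letters, 1.59% the cAMP response element, 30.5% the GC box, 12.9% the TATA motif, 5.59% the E-box and 1.5% the CArG box. *Egr1* held 2 CArG boxes, which begin 105 and 83 bases before the start, *Junb* 1 TATA motif and *Fosl1* 1 GC box. The windows of the phosphatases are shown because these genes moved in opposite directions in shRNA3T, with motif matches in capitals. *Dusp1* (chr10:17184603-17184852, + strand) held 1 cAMP response element, 2 GC boxes and 1 E-box, and *Dusp6* (chr7:35979354-35979603, + strand) held none of the 6 motifs.
Dusp1: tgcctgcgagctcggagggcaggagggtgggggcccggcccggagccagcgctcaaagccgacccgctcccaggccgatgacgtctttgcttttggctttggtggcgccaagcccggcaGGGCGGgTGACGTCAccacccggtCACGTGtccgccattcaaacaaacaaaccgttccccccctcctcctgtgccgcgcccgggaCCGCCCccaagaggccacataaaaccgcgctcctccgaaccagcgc
Dusp6: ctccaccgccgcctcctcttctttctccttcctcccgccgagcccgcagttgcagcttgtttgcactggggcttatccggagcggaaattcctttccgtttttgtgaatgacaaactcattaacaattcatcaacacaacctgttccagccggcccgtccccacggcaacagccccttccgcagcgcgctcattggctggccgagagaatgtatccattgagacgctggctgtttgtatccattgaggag

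Levels are log2 normalized intensities, in which 1 unit is a 2-fold difference. The silenced gene, *Pdrg1*, read from 13.41 to 13.88 on the arrays of CN-10 (1 spot, chr3:143353382-143353441, - strand). It ranged from 11.57 to 13.34 in 4-18, from 11.89 to 12.95 in 3-44 and from 12.39 to 12.97 in shRNA3T. No silenced array reached the lowest control array. The differences from CN-10 were -0.77 in 4-18, -0.99 in 3-44 and -0.85 in shRNA3T (SE 0.34 each; two-sided exact permutation p = 0.0286 each, the smallest that 4 arrays against 4 can give), and limma's adjusted p was 0.129, 0.105 and 0.143. Replicate 1 read lowest in all 4 groups. Without replicate 1 of 4-18 the difference there was -0.33 (limma adjusted p = 0.349), and without replicate 1 of every group the differences were -0.41, -0.82 and -0.79 (limma adjusted p = 0.00647, 0.000306 and 0.000212). Arrays of 4-18 were the dimmest, with 53.1% to 64.1% of gene spots well above background against 64.7% to 74.3% on the other arrays. Of 12 hepatocyte or hepatoma markers, 10 were well above background on all 16 arrays, including *Alb*, *Afp* and *Ttr*. The endothelial markers *Pecam1* and *Tek* and the leukocyte marker *Ptprc* were above background on none, while *Col1a1*, *Cdh5* and *Itgam* were above it on all. The median difference of the 12 hepatocyte markers from CN-10 was -0.35 in 4-18, 0.57 in 3-44 and 0.19 in shRNA3T, and their part in the results below was not tested.

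*Egr1*, read by the brighter of its 2 probes, and *Myc* were lower than in CN-10 in both groups made with shRNA3. *Dusp6* was lower in 4-18 and shRNA3T, and *Dusp1* was higher in shRNA3T. The size of these differences ran from 1.22-fold to 2.05-fold, and the only one that also passed the 2-fold limit was *Egr1* in 3-44. On the other *Egr1* probe the difference in 3-44 was -0.0044. *Myc* in shRNA3T lost the adjusted threshold in 13 of 21 alternative fits. The silenced groups were not told apart for *Dusp6* or *Dusp1*. For the other 6 genes, no difference from CN-10 passed limma's adjusted threshold in any silenced group in the main fit. *Jun* in 4-18 passed it when the replicate number was added as a block (limma adjusted p = 0.00372). At 2-fold and an adjusted p under 0.05, 0 of the 10 genes were called in 4-18, where 2.62% of all gene names were called higher and 3.54% lower. That count rose under some other scalings of the arrays, given below. In 3-44 the count was 0 higher and 1 lower (background 0.685% and 0.788%), and in shRNA3T 0 in either direction (background 1.2% and 1.19%). Without the fold limit, 4-18 had 0 higher and 1 lower against a background of 11.6% and 12.4%. By the same rule 3-44 had 0 higher and 2 lower (3.45% and 4.69%), and shRNA3T had 1 higher and 3 lower (5.13% and 7.04%). The median difference over the 9 genes with signal above background, *Fosl1* left out, was 0.01 in 4-18, -0.23 in 3-44 and -0.25 in shRNA3T, whereas over all gene names it lay between -0.01 and 0.00 in the 3 comparisons. These medians were taken with quantile normalization only. With arrays centred on their medians, *Ier3* in 4-18 was -0.86 and *Myc* -1.08 relative to the median probe. Of the 9, only the dim *Fos* and *Dusp1* were not lower there than with quantile normalization. The 3 comparisons share the 4 control arrays.

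**Figure D1:**
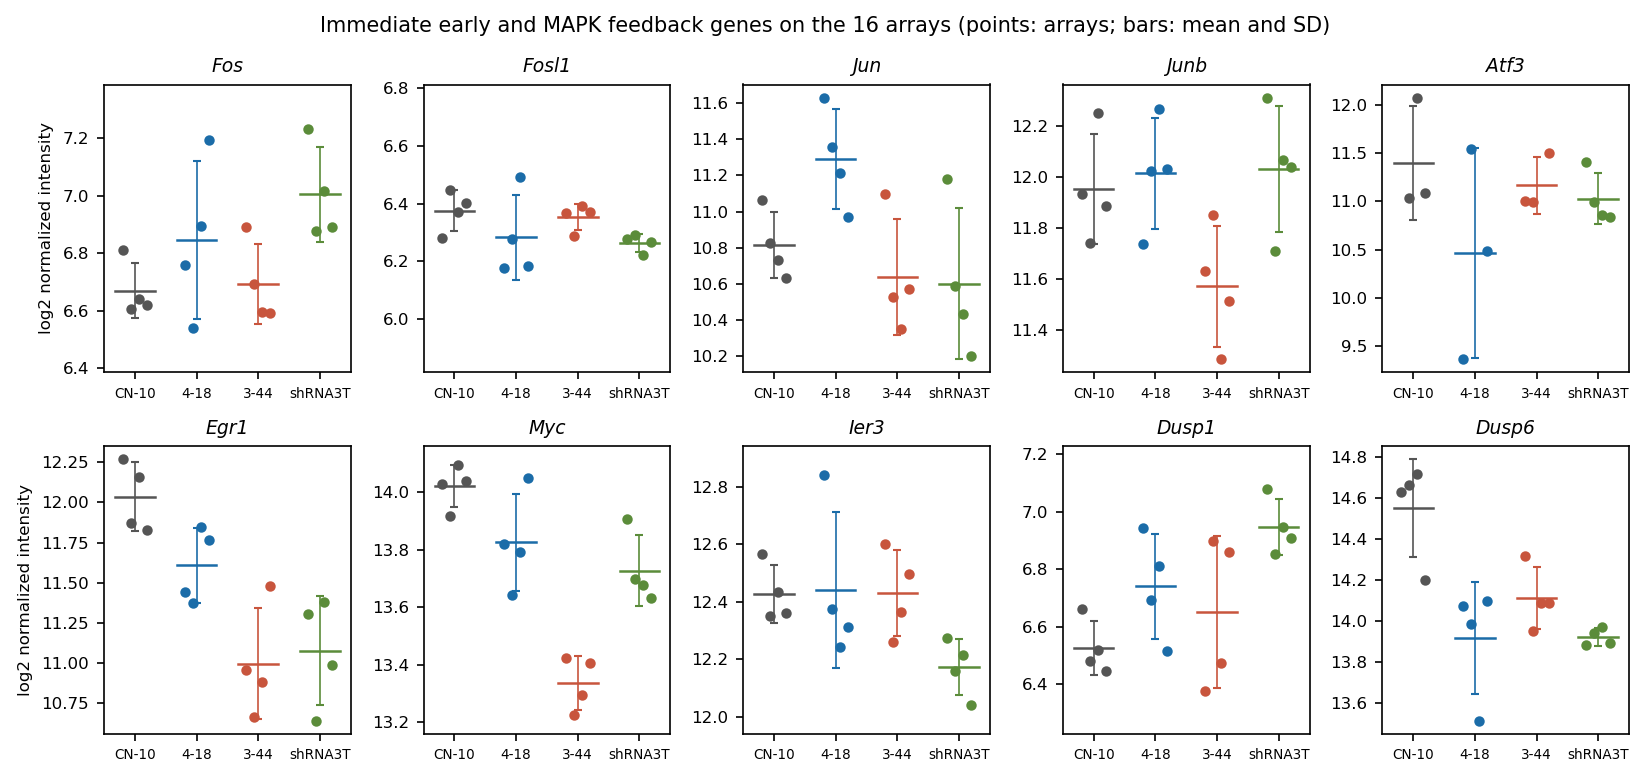
Log2 normalized intensity of each gene (vertical axis, a separate scale per panel) in the 4 groups, with 1 point per array, the mean and the SD. *Myc* in 3-44 lies below every other group, *Dusp6* in 4-18 and shRNA3T lies below all control arrays, and the measured signal of *Fosl1*, well above background on no array, stays between 6.18 and 6.49.

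*Egr1*, the zinc finger factor induced through serum response elements, gave the widest range of group means of the 10 genes. Its brighter probe, printed in 10 spots per array (rn4 build, chr18:27347173-27347232, + strand), read 12.27, 11.87, 12.16 and 11.83 in replicates 1 to 4 of CN-10. It read 10.96, 10.67, 10.88 and 11.48 in 3-44 and 11.31, 10.64, 11.38 and 10.99 in shRNA3T. Every array of both groups was below every control array, so neither overlapped CN-10. The difference was -1.04 in 3-44 (SE 0.19, limma adjusted p = 0.00307), a 2.05-fold lower signal, and -0.96 in shRNA3T (SE 0.19, limma adjusted p = 0.00357), 1.94-fold lower. In 4-18 the probe read 11.44, 11.38, 11.85 and 11.77, which overlapped CN-10 (4-18 minus CN-10 -0.42, SE 0.19, limma adjusted p = 0.129). All 10 spots were lower in 3-44 and in shRNA3T, and 7 of the 10 were lower in 4-18. The order of the means was therefore CN-10, 4-18, shRNA3T and 3-44. In the main fit CN-10 and 4-18 were not told apart. Nor were 4-18 and shRNA3T (adjusted p = 0.0649 by limma) or shRNA3T and 3-44 (adjusted p = 0.867 by limma). With the replicate number as a block, 4-18 and shRNA3T differed at a limma adjusted p of 0.0323.

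The other *Egr1* probe gave a different picture in 3-44. It has 1 spot per array, lies upstream of the first on the same strand (chr18:27346058-27346117), and read 9.99, 9.33, 10.73 and 10.29 in CN-10. In 3-44 it read 9.43, 9.95, 10.21 and 10.73, a difference of -0.0044 with a 95% interval from -0.93 to 0.92. In shRNA3T it read 8.64, 9.27, 9.88 and 9.04, a difference of -0.88 (SE 0.43, limma adjusted p = 0.251). In 4-18 the array values spread from 9.42 to 11.61 and the difference was 0.32 (limma adjusted p = 0.665). The SD between replicates was 0.52 to 0.96 on this probe against 0.21 to 0.35 on the 10-spot probe, whose values are means of several spots. Between the 10 spots of an array the median SD was 0.63. The differences of its single spots in 4-18 from CN-10 ran from -1.61 to 0.51. With the probes averaged, the difference in 3-44 was -0.52 (limma adjusted p = 0.267), so the call there rests on the 10-spot probe. On that probe the difference in 3-44 stayed past an adjusted p of 0.05 without any single array but fell short of 2-fold without replicate 1 (-0.96) or 3 (-0.99) of CN-10 or without replicate 2 (-0.93) or 3 (-0.998) of 3-44. In shRNA3T the 10-spot probe passed 2-fold without replicate 2 or 4 of CN-10 or replicate 1 or 3 of shRNA3T, with differences up to -1.06.

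**Figure D2:**
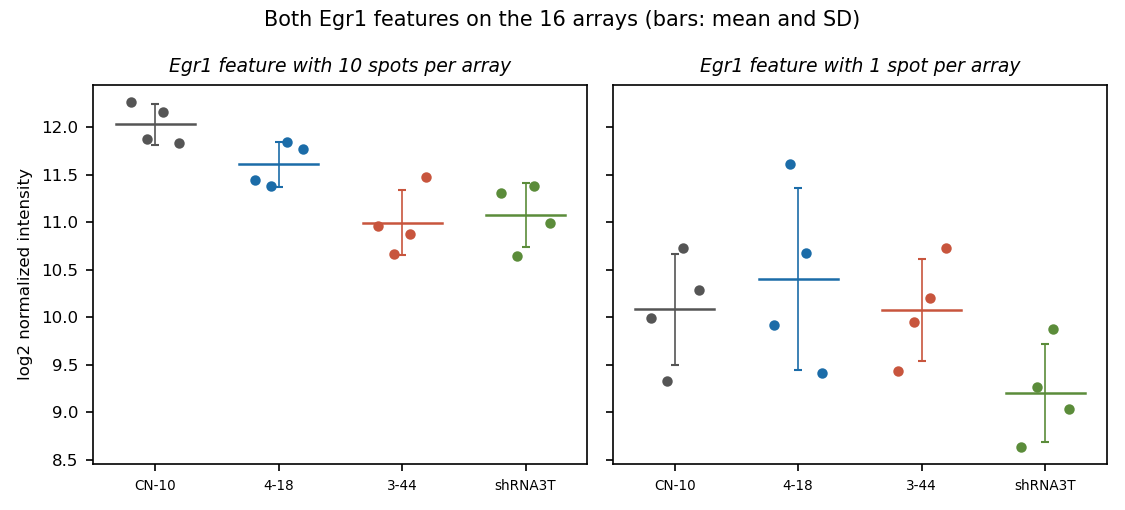
Log2 normalized intensity of the 10-spot and the 1-spot *Egr1* probe (vertical axis, shared scale) in the 4 groups, with 1 point per array, the mean and the SD. The 10-spot probe separates 3-44 and shRNA3T from CN-10, whereas on the 1-spot probe the arrays of 3-44 (9.43 to 10.73) and CN-10 (9.33 to 10.73) cover nearly the same range.

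*Myc*, a growth-promoting factor whose mRNA turns over quickly, was the most precisely measured of the changed genes (10 spots per array, chr7:98957687-98957746, + strand). It read 14.03, 13.92, 14.09 and 14.04 in CN-10 and 13.42, 13.23, 13.29 and 13.41 in 3-44. The difference of -0.68 (SE 0.09, limma adjusted p = 0.000212) was a 1.6-fold lower signal, seen in all 10 spots. In shRNA3T it read 13.91, 13.70, 13.68 and 13.63, and the highest of these lay just under the lowest control array. That difference, -0.29 (SE 0.09, limma adjusted p = 0.0483), was 1.22-fold, and it passed the threshold in 1 of the 8 fits that left out a single array (adjusted p from 0.0223 to 0.141). The arrays whose absence lost it were all 4 of CN-10 and replicates 2, 3 and 4 of shRNA3T. In 4-18 the values were 13.82, 13.64, 13.79 and 14.05 (difference -0.19, limma adjusted p = 0.143), and replicate 4 reached the level of the controls. Without that replicate the adjusted p was 0.0349 at a difference of -0.27.

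*Dusp6*, the cytoplasmic phosphatase that removes ERK's activating phosphates and is itself an ERK-induced gene, was lower in 4-18 and shRNA3T (10 spots per array, chr7:36897369-36897428, + strand). The control arrays read 14.63, 14.67, 14.72 and 14.20, and the 4-18 arrays 14.07, 13.99, 13.51 and 14.10. In shRNA3T the 4 arrays lay between 13.88 and 13.97. Neither group overlapped CN-10. The difference was -0.63 in 4-18 (SE 0.14, limma adjusted p = 0.00286) and -0.63 in shRNA3T (SE 0.14, limma adjusted p = 0.00586), 1.55-fold lower in each. In 3-44 the values of 14.32, 13.95, 14.09 and 14.09 gave -0.44 (SE 0.14, limma adjusted p = 0.0619), and the highest of them was above the lowest control array. That control array, replicate 4 of CN-10, stood apart from the other 3, and without it the difference in 3-44 was -0.56 with an adjusted p of 0.0162. Replicate 1 of 3-44 acted likewise, since the difference was -0.51 and the adjusted p 0.0454 without it. Outlier spots were set aside in CN-10 (5 spots), 4-18 (1) and 3-44 (1), and with them kept the differences were -0.49 in shRNA3T and -0.34 in 3-44.

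*Dusp1*, the nuclear MAP kinase phosphatase, was near the detection limit (1 spot, chr10:16944342-16944661, + strand), well above background on 2 of 4 arrays in CN-10 and in 4-18 and on all arrays of 3-44 and shRNA3T. It read 6.66, 6.48, 6.52 and 6.45 in CN-10 and 7.08, 6.85, 6.95 and 6.91 in shRNA3T, with no overlap. The difference was 0.42 (SE 0.12, limma adjusted p = 0.0348), a 1.34-fold higher signal. It lost the threshold without replicate 2, 3 or 4 of CN-10 or replicate 1, 3 or 4 of shRNA3T, with adjusted p up to 0.0930. In 4-18 and 3-44 the differences were 0.21 and 0.12 (limma adjusted p = 0.24 and 0.653), and the arrays overlapped those of CN-10. On the software's processed signal scaled to the 75th percentile, the difference in shRNA3T was 0.75 as scaled and 0.97 relative to the median difference of all probes (limma adjusted p = 0.0545 for the latter), and that in 3-44 was 0.96 and 1.00 (limma adjusted p = 0.0824). Without background subtraction the differences were 0.47 and 0.27 (limma adjusted p = 0.0445 and 0.355).

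**Figure D3:**
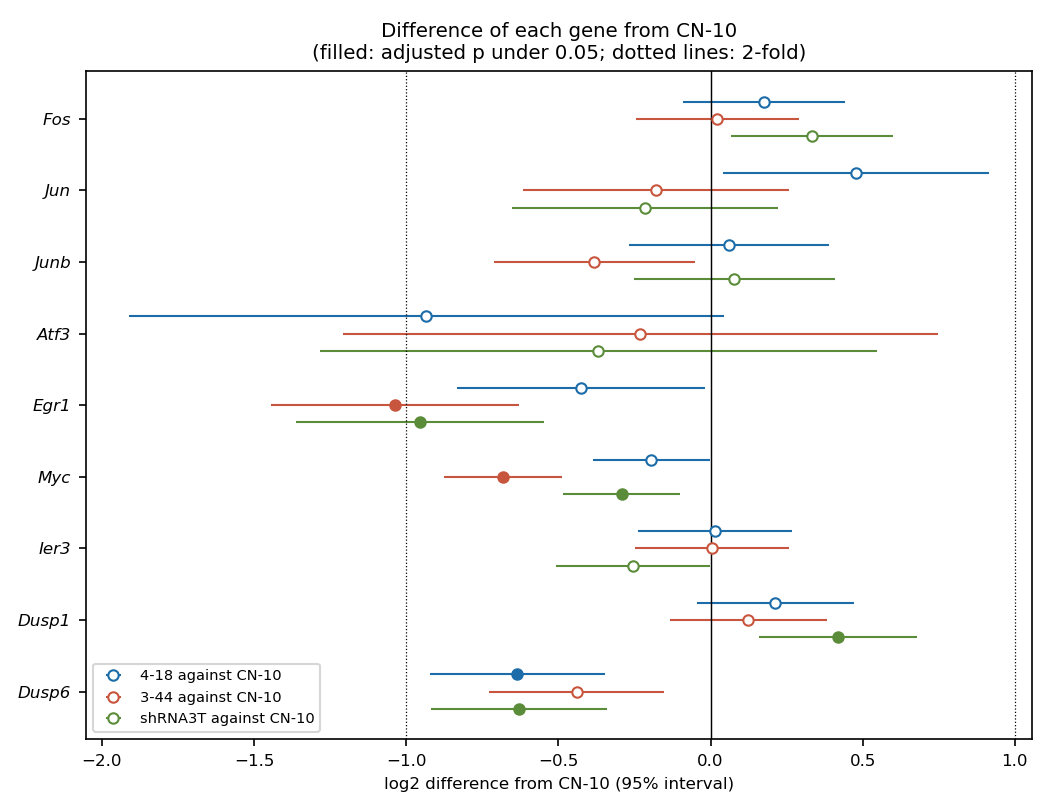
Log2 difference from CN-10 of the 9 genes with signal above background, with its 95% interval (horizontal axis) in 4-18, 3-44 and shRNA3T. Filled points have an adjusted p under 0.05, and dotted lines mark 2-fold. The filled points are *Egr1* and *Myc* in 3-44 and shRNA3T, *Dusp1* in shRNA3T, and *Dusp6* in 4-18 and shRNA3T.

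Of the AP-1 subunits, *Fos*, the partner that JUN proteins need for high-affinity DNA binding, gave a dim signal (1 spot, chr6:109561941-109562000, + strand). It read 6.81, 6.61, 6.64 and 6.62 in CN-10 and 7.23, 6.88, 7.02 and 6.89 in shRNA3T. The groups did not overlap, and the difference of 0.33 gave an exact permutation p of 0.0286 and a limma adjusted p of 0.109. The means were 6.85 ± 0.27 (SD, n = 4) in 4-18, where 2 of 4 arrays were well above background, and 6.69 ± 0.14 in 3-44. *Fosl1*, which encodes FRA-1, was well above background on 0 of 16 arrays (chr1:208099035-208099094, + strand), so its values are bounds and no fold is given.

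*Jun*, the main partner in AP-1 (1 spot, chr5:115359410-115359469, - strand), read 11.07, 10.83, 10.73 and 10.63 in CN-10 and 11.63, 11.36, 11.21 and 10.97 in 4-18. The difference of 0.48 (SE 0.20, 95% interval 0.04 to 0.92) had a limma adjusted p of 0.112, and the lowest 4-18 array fell within the control range. With the replicate number as a block, not used in the main fit, the same difference had SE 0.10 and a limma adjusted p of 0.00372. Relative to the median probe, that direction turned under median centring and on the unscaled deposited values. The 3-44 arrays read 11.10, 10.53, 10.35 and 10.57 and the shRNA3T arrays 11.18, 10.59, 10.44 and 10.20, with differences from CN-10 of -0.18 and -0.22 (limma adjusted p = 0.712 and 0.639). Replicate 1 was the highest array in all 4 groups. *Junb*, a JUN family member that often opposes JUN in proliferation, had means of 11.95 ± 0.21, 12.02 ± 0.22, 11.57 ± 0.24 and 12.03 ± 0.25 (SD, n = 4) in CN-10, 4-18, 3-44 and shRNA3T (1 spot, chr19:24833225-24833284, + strand). The difference in 3-44 was -0.38 (limma adjusted p = 0.174), and the 3 comparisons with CN-10 all overlapped.

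*Atf3*, a stress-induced member of the ATF/CREB family that also pairs with JUN, was the noisiest of the 10 (1 spot, chr13:107191691-107191749, - strand). Its spot was set aside as an outlier on 1 array each of CN-10, 4-18 and 3-44, so those groups have 3 values. It read 11.03, 12.08 and 11.09 in CN-10 and 9.37, 11.54 and 10.48 in 4-18, a difference of -0.93 (SE 0.45, limma adjusted p = 0.167). Leaving out the 4-18 array at 11.54, replicate 2, gave -1.47 with an adjusted p of 0.0148, and leaving out the one at 9.37, replicate 1, gave -0.39 with 0.528. Without replicate 3 of CN-10 it was -0.60 with 0.452. In 3-44 and shRNA3T the differences were -0.23 and -0.37 (limma adjusted p = 0.851 and 0.716). *Ier3*, an early response gene that modulates survival signalling, had close means in the 3 clones (10 spots, chr20:3076832-3076891, - strand). Its means were 12.43 ± 0.10 in CN-10, 12.44 ± 0.27 in 4-18 and 12.43 ± 0.15 in 3-44 (SD, n = 4), with 95% intervals of -0.24 to 0.27 and -0.25 to 0.26 for the differences, whose sign turned with the scaling. In shRNA3T the 4 arrays lay between 12.04 and 12.27, all below the control arrays, and the difference of -0.25 had an exact permutation p of 0.0286 and a limma adjusted p of 0.216.

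Between the silenced groups, 0 of the 10 genes passed the 2-fold limit, where 4.98% of all gene names did in 4-18 against 3-44, 4.56% in 4-18 against shRNA3T and 2.12% in 3-44 against shRNA3T. Without the fold limit, 3 genes (*Jun*, *Egr1* and *Myc*) were higher in 4-18 than in 3-44, where 22.5% of gene names changed in either direction. *Jun* differed by 0.66 (limma adjusted p = 0.0316), *Egr1* by 0.61 on its 10-spot probe (limma adjusted p = 0.0314) and *Myc* by 0.49 (limma adjusted p = 0.00108). On the 1-spot probe *Egr1* differed by 0.33 (limma adjusted p = 0.647). *Myc* differed without overlap and in all fits that left out 1 array. Against shRNA3T, where 20.5% of gene names changed, 1 gene, *Jun*, was higher in 4-18 (0.69, limma adjusted p = 0.0258). Between the clone and the pool made with the same hairpin, where 10.9% of gene names changed, 1 gene, *Myc*, was lower in 3-44 than in shRNA3T (-0.39, limma adjusted p = 0.0112), again without overlap. *Egr1* differed between that clone and the pool by -0.08 with a 95% interval from -0.49 to 0.33 on its 10-spot probe and by 0.87 with one from -0.05 to 1.80 on its 1-spot probe (limma adjusted p = 0.867 and 0.253). For *Dusp6*, 4-18 minus 3-44 was -0.20, 4-18 minus shRNA3T -0.0053 and 3-44 minus shRNA3T 0.19 (limma adjusted p = 0.343, 0.987 and 0.456). For *Dusp1* the same differences were 0.089, -0.21 and -0.30 (limma adjusted p = 0.658, 0.281 and 0.154). The *Jun* and *Egr1* differences lost the threshold in 5 of 8 fits that left out 1 array. For *Egr1* these were replicates 1, 2 and 3 of 3-44 and 3 and 4 of 4-18 (adjusted p up to 0.0999). For *Jun* they were replicates 2, 3 and 4 of 3-44 with 1 and 2 of 4-18, and replicates 1 and 2 of 4-18 with 2, 3 and 4 of shRNA3T (up to 0.0967 and 0.0910). With the replicate number as a block, the *Jun* differences of 4-18 had limma adjusted p of 0.000447 against 3-44 and 0.000336 against shRNA3T.

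The scaling of the arrays bears on all differences that involve 4-18. When arrays were not matched over their whole range of brightness, the median probe of 4-18 shifted against CN-10 by 0.20 (processed signal scaled to the 75th percentile), 0.39 (median centring) and 0.15 (deposited values, unscaled). Relative to that shift, *Jun* in 4-18 against CN-10 was 0.13, -0.36 and -0.37 in that order, *Junb* -0.33, -0.81 and -0.81, *Ier3* -0.13, -0.86 and -0.86, *Myc* -0.34, -1.08 and -1.08, *Egr1* -0.73, -1.29 and -1.30, and *Dusp6* -0.66, -1.49 and -1.5. Under median centring and on the deposited values the dim genes did not move down. Relative to the shift, *Fos* was 0.23 in both and *Dusp1* 0.45 and 0.47, beside 0.18 and 0.21 with quantile normalization. With cyclic loess, which like quantile normalization matches the range of brightness, *Jun* was 0.41, *Egr1* -0.49 and *Dusp6* -0.68. The higher *Jun*, *Egr1* and *Myc* in 4-18 than in 3-44, and the higher *Jun* in 4-18 than in shRNA3T, turned direction relative to the median probe both with median centring and on the deposited values. In 3-44 against CN-10 the relative differences of *Egr1* stayed between -1.13 and -1.04 and those of *Myc* between -0.75 and -0.62 under 6 other scalings and background settings. *Egr1* in 3-44 kept an adjusted p under 0.05 in each, whereas *Myc* in 3-44 lost it with median centring (limma adjusted p = 0.118) and on the deposited values (0.181), both relative to the median probe, where *Egr1* in shRNA3T (-0.88 in both) lost it too (0.0525 and 0.0872). With the shift left in under median centring, *Egr1* in shRNA3T was -0.92 and kept it (limma adjusted p = 0.0373). On the processed signal the median probe of shRNA3T shifted by -0.23. *Myc* in shRNA3T was -0.29 there as scaled and -0.063 relative to that shift (limma adjusted p = 0.824 for the latter), and it lost the threshold in 13 of 21 alternatives. *Dusp6* in shRNA3T was -0.54 as scaled and -0.32 relative to the shift (limma adjusted p = 0.177 for the latter) and lost the threshold in 4 of 21 alternatives (up to 0.355), *Dusp1* in shRNA3T lost it in 11 of 21, and *Dusp6* in 4-18 in 0 of 21. In 4-18 against CN-10, *Egr1* and *Atf3* passed it in 4 of 21 alternatives each and *Myc* in 5 of 21, with *Atf3* at -1.88 under median centring relative to the median probe (limma adjusted p = 0.00209).

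**Figure D4:**
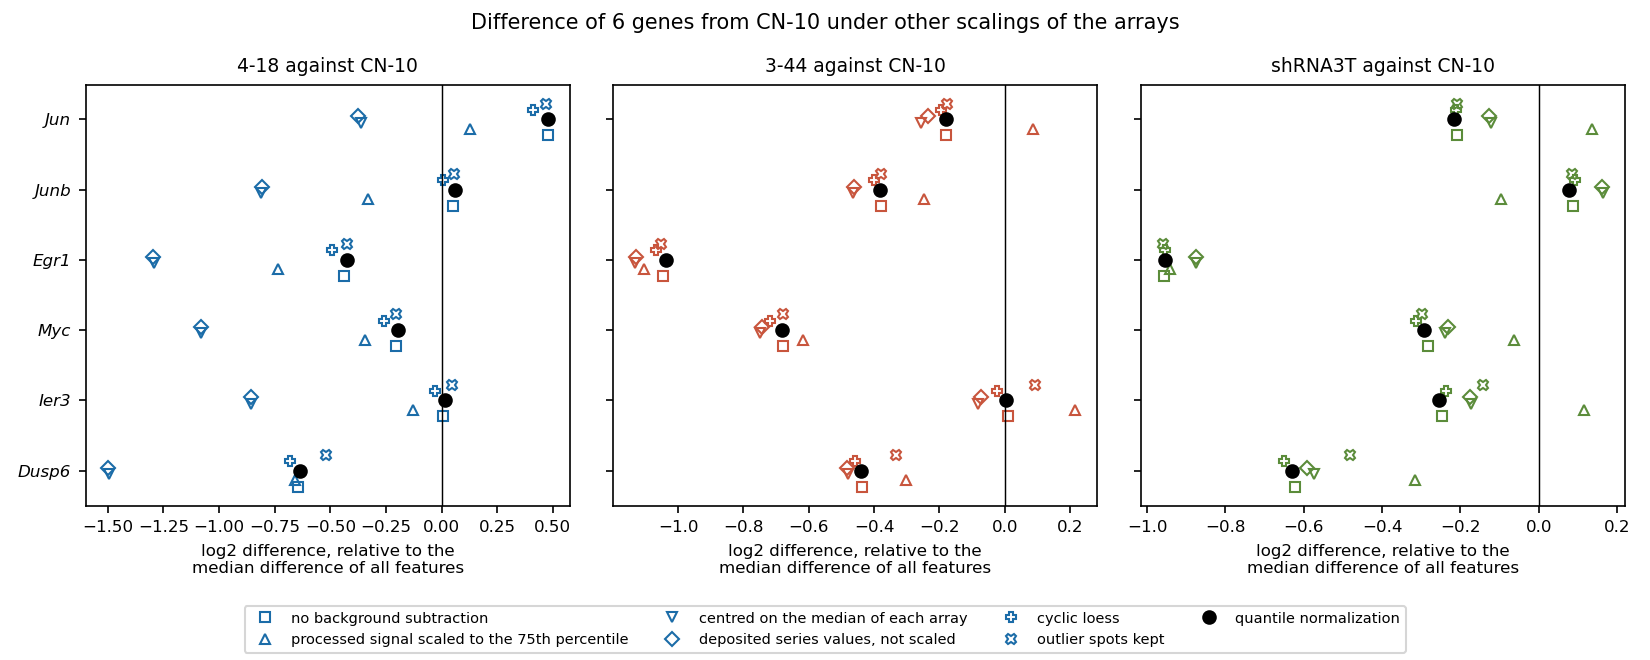
Log2 difference of 6 genes from CN-10 (horizontal axis, relative to the median difference of all probes) with quantile normalization (black) and 6 other settings (open symbols), 1 panel per silenced group. In 4-18, median centring and the unscaled deposited values move all 6 genes down and *Jun* from 0.48 to below zero, whereas *Egr1* and *Myc* in 3-44 hold their place. The dim genes *Fos* and *Dusp1*, not shown, did not move down in 4-18 under these settings.

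Around these genes, 7 lists of other growth signalling genes held 141 distinct gene names on the array. In 4-18, 8 of the 141 were called higher and 9 lower at 2-fold (5.67% and 6.38%, beside the 2.62% and 3.54% of all gene names). In 3-44 the counts were 1 and 1 (0.709% each, beside 0.685% and 0.788%), a share near that of all gene names, and in shRNA3T 4 and 7 (2.84% and 4.96%, beside 1.2% and 1.19%). The same background stands behind the counts of each list. The medians of the 141 differences were -0.01, -0.01 and 0.00. The count in shRNA3T was 6 without replicate 4 of CN-10 and 7 without replicate 2 of shRNA3T. On the unscaled deposited values the total rose in 4-18 and fell in shRNA3T, and its split into higher and lower is not given. The genes named by rule kept their direction under the 6 other scaling and background settings wherever they were called, but not always their size. In 4-18, *Mlx* was 0.14 and *Phlda1* 0.78 with median centring, relative to the median probe. An adjusted p under 0.05 was lost under at least 1 of these settings by *Mapkapk2* and *Mlx* in 4-18 (limma, up to 0.691), by *Areg* in 3-44 (up to 0.181) and by 6 of the 9 called in shRNA3T, *Sgk1*, *Hras*, *Odc1*, *Fgfr3*, *Mycn* and *Mxd3* (up to 0.294). *Errfi1*, *Gadd45b*, *Btg2* and *Cd44* are outside that rule and were chosen after their values were seen.

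Of 29 other immediate early genes, 3 were called in 4-18 (1 higher, 2 lower), 0 in 3-44 and 3 in shRNA3T (1 higher, 2 lower). *Nr4a1*, an orphan nuclear receptor induced by growth factors, read 14.21, 14.33, 14.69 and 14.13 in CN-10 and 12.80, 13.04, 13.06 and 12.52 in shRNA3T, a fall of 1.48 on the log2 scale (limma adjusted p = 1.86e-05). In 3-44 it was lower by less than the 2-fold limit (-0.77, limma adjusted p = 0.00637), and in 4-18 the difference was 0.12. That direction in 4-18 turned with the scaling. Relative to the median probe it was -0.75 both with median centring and on the deposited values (limma adjusted p = 0.0403 and 0.0693). *Sgk1*, the serum- and glucocorticoid-induced kinase, ranged from 9.52 to 10.02 in CN-10 and from 7.30 to 8.21 in 4-18, where the difference was -1.99 (limma adjusted p = 0.000335). In shRNA3T it was -1.14 (limma adjusted p = 0.0312). *Klf10*, a repressor induced by TGF-beta, was lower in 4-18 (-1.71, limma adjusted p = 1.69e-05), and its differences in 3-44 and shRNA3T were -0.10 and -0.53. *Gadd45b* was higher in 4-18 (1.03, limma adjusted p = 0.00240) and the antiproliferative gene *Btg2* in shRNA3T (1.02, limma adjusted p = 0.0288).

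Among 18 other MAPK feedback genes, 1 was called higher and 3 lower in 4-18, 0 in 3-44, and 1 lower in shRNA3T. *Spry1*, an inhibitor of receptor tyrosine kinase signalling, ranged from 11.90 to 12.23 in CN-10 and from 10.27 to 11.17 in 4-18 (difference -1.39, limma adjusted p = 3.06e-05), and its difference in shRNA3T was -0.02. *Dusp4*, a nuclear relative of *Dusp1*, was -1.23 in 4-18 (limma adjusted p = 0.000245) and, short of 2-fold, -0.72 in shRNA3T (limma adjusted p = 0.0218). *Errfi1*, an inhibitor of the EGF receptor, was lower in 4-18 (-1.22, limma adjusted p = 9.17e-05) and shRNA3T (-1.10, limma adjusted p = 0.000511). *Phlda1* moved the other way in 4-18, from a mean of 9.16 in CN-10 to 10.72 (difference 1.56, limma adjusted p = 1.62e-06).

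In the ERK cascade list, 1 of 25 genes was called higher and 1 lower in 4-18, 0 in 3-44 and 1 lower in shRNA3T. *Elk3*, a ternary complex factor, was dim in CN-10 (6.37 to 6.71, well above background on 3 of 4 arrays) and read 7.78 to 8.22 in 4-18 (1.42, limma adjusted p = 4.30e-07). The adaptor *Shc1* was lower in 4-18 (-1.07, limma adjusted p = 0.000591) and *Hras* in shRNA3T (-1.13, limma adjusted p = 0.0148). In the JNK and p38 list of 14 genes, 2 were called higher in 4-18 and 1 in each of the other groups. *Mapkapk2*, the kinase activated by p38, was the only gene of the 7 lists called in all 3 comparisons, which share the CN-10 arrays. It read from 14.09 to 14.27 in CN-10, from 14.84 to 15.77 in 4-18, from 15.29 to 15.68 in 3-44 and from 15.66 to 15.77 in shRNA3T. The differences were 1.12, 1.26 and 1.56 (limma adjusted p = 5.42e-05, 8.58e-05 and 6.63e-06). The difference in 4-18 depended on the scaling, since relative to the median probe it was 0.56 on the processed signal (limma adjusted p = 0.0302) and 0.24 both with median centring and on the deposited values (limma adjusted p = 0.54 and 0.533). *Map3k1*, which acts upstream of JNK, was 1.76 higher in 4-18 (limma adjusted p = 5.28e-07). Relative to the median probe it was 0.94, short of 2-fold, both with median centring and on the deposited values (limma adjusted p = 0.0137 and 0.0162). *Map3k1* was also higher, by less than 2-fold, in 3-44 (0.77, limma adjusted p = 0.00354) and shRNA3T (0.59, limma adjusted p = 0.0140).

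Of 21 growth factors and receptors, 1 was called lower in 4-18, 1 lower in 3-44 and 2 higher in shRNA3T. *Areg*, the EGF receptor ligand amphiregulin, lay between 8.01 and 8.40 in CN-10 and was -1.10 in 4-18 (limma adjusted p = 1.01e-05) and -1.15 in 3-44 (limma adjusted p = 3.42e-05). In shRNA3T it was -0.52 (limma adjusted p = 0.0106). The receptors *Fgfr3* and *Erbb3* were higher in shRNA3T by 1.23 (limma adjusted p = 0.000157) and 1.00 (limma adjusted p = 5.83e-06). In the MYC network list, 10 genes were on the array, with 1 higher and 1 lower in 4-18, 0 called in 3-44 and 2 lower in shRNA3T. *Mycn*, the relative of *Myc*, ranged from 8.01 to 8.26 in CN-10, from 6.84 to 7.23 in 4-18 and from 6.99 to 7.27 in shRNA3T, and its differences were -1.11 and -1.01 (limma adjusted p = 3.10e-06 and 2.16e-05). It was also lower in 3-44, by less than 2-fold (-0.43, limma adjusted p = 0.0251). The MAX-binding repressor *Mxd3* was lower in shRNA3T (-1.05, limma adjusted p = 0.000124), and *Mlx* was higher in 4-18 (1.00, limma adjusted p = 1.74e-05).

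Of 24 target genes of AP-1, MYC and ERK, 2 were called higher and 1 lower in 4-18, 0 in 3-44 and 1 lower in shRNA3T. *Il11* fell in 4-18 by 1.46 on the log2 scale (limma adjusted p = 0.000385). *Odc1*, the first enzyme of polyamine synthesis and a well-known MYC target, read between 13.93 and 14.45 in CN-10 and between 12.91 and 13.22 on the 3 usable shRNA3T arrays (-1.15, limma adjusted p = 5.74e-05). The difference of *Odc1* in 3-44 was -0.32 (limma adjusted p = 0.150), and whether it follows *Myc* was not tested. *Cd44* was higher in 4-18 (1.06, limma adjusted p = 0.00573).

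**Figure D5:**
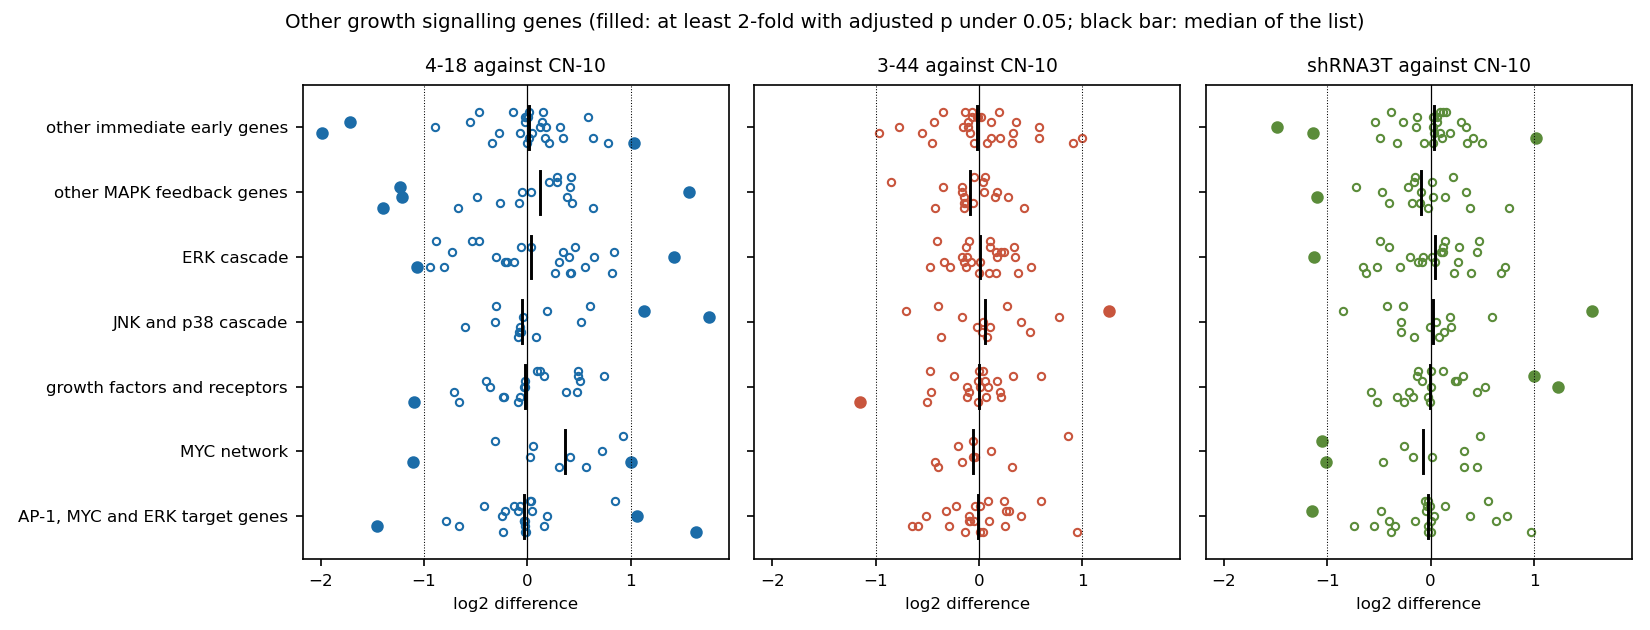
Log2 difference from CN-10 (horizontal axis) of the genes of 7 other growth signalling lists, 1 panel per silenced group and 1 point per gene, with the list median as a black bar. Filled points passed 2-fold with an adjusted p under 0.05. There are 17 of 141 distinct genes filled in 4-18, 2 in 3-44 and 11 in shRNA3T.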

How the data were processed

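RNA of 16 samples (200 ng each) was hybridized to one-color arrays. The authors read the scans with Feature Extraction (version 10.7.3.1, per the deposited file headers), and the deposited values are the linear intensity of each spot and its local background, not normalized, with the software's processed signal. A table of values per array, a score that had lost its decimal points, was deposited too. With the points put back it equalled log2 of the normexp-corrected median signal, offset 50, without scaling (largest difference 3.99e-11).

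In R 4.3.3 with limma 3.58.1, mean signals were corrected with normexp (offset 50), control spots dropped, the 42877 gene spots quantile normalized, outlier-flagged spots set aside and spots of a probe averaged. A probe was well above background on an array where most of its spots carried that flag, and no gene spot was saturated. Group means were estimated jointly from the 16 arrays by lmFit and moderated by eBayes, and p-values were Benjamini-Hochberg adjusted over 30367 probes. Called means at least 2-fold with adjusted p under 0.05, the rule of the methods. A gene was read by its brightest probe. Exact permutation tests were two-sided. The p-values measure only the spread between these samples, and the number of arrays limits their precision. The steps were tested on simulated data. Per comparison, 183 to 191 of 200 changed probes were recovered and 0 to 5 were wrongly called. The recovered probes were 86 to 93 of those changed by 1.5 and 95 to 100 of those changed by 2 log2 units. Both sizes exceed the largest difference of a member on its brightest probe, -1.04 for *Egr1* in 3-44 against CN-10. The simulation therefore cannot tell how often differences of the members' size are missed.

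Members and lists were chosen with earlier results of these data known, and support nothing by their choice. Besides the members and *Pdrg1*, up to 3 called genes with the largest difference were named per list (other immediate early genes, other MAPK feedback genes, ERK cascade, JNK and p38 cascade, growth factors and receptors, MYC network, target genes), and any called in all 3 comparisons. One gene that meets this rule is not reported here. Same-numbered replicates of different groups correlated between -0.13 and 0.50 in their deviations (15 of 24 pairs over 0.1, beside 13 of 72 pairs of unlike numbers). The labels tie the numbers to no shared batch and not every pair was over 0.1, so numbers were not used as pairs in the fit. Positions are the probes' rn4 positions in the deposited files, and no annotation of that build was used.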

Additional observations from a re-analysis of the deposited data

Results flagged for a closer look

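Replicate 4 of CN-10 stood apart on *Dusp6*, with a gap to the next array of 0.831 of the group's range. It was 1 of 41 groups of 4 values tested, and chance flags about 1 in 20. *Jun* differed between silenced groups in the same contrast with CN-10, by 0.66 between 4-18 and 3-44 and by 0.69 between 4-18 and shRNA3T. *Egr1* did so by 0.61 between 4-18 and 3-44 on its 10-spot probe, beside 0.33 on its 1-spot probe, which missed the threshold. *Myc* differed by 0.49 between 4-18 and 3-44 and by -0.39 between 3-44 and shRNA3T. All 5 differences passed limma's adjusted threshold, and those that involve 4-18 depend on how arrays were scaled. Slide, clone and group cannot be told apart in any of them.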

How the results depend on the processing

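Over 32 log2 differences and 672 alternatives, 533 kept direction and side of the threshold, 65 lost the threshold, 24 gained it and 50 changed sign, and the cause was not tested. On the processed signal scaled to the 75th percentile, relative to the median probe, the sign changed for *Fos* (-0.44 in 4-18, -0.31 in 3-44), *Jun* (0.088 in 3-44, 0.14 in shRNA3T), *Junb* (-0.33 in 4-18, -0.10 in shRNA3T) and *Ier3* (-0.13 in 4-18, 0.12 in shRNA3T). With median centring, the shift of the median probe left in, it changed for *Junb* (-0.42 in 4-18), *Ier3* (-0.47 in 4-18) and *Myc* in 4-18 against 3-44 (-0.038). Relative to the median probe, a setting added after seeing the data, centring changed it in 4-18 for *Jun* (-0.36), *Junb* (-0.81) and *Ier3* (-0.86), in 3-44 for *Fos* (-0.015) and *Ier3* (-0.081), in 4-18 against 3-44 for *Jun* (-0.16), *Egr1* (-0.22) and *Myc* (-0.39), and in 4-18 against shRNA3T for *Jun* (-0.26). On the deposited values, relative to the median probe, it changed in 4-18 for *Jun* (-0.37), *Junb* (-0.81) and *Ier3* (-0.86), in 3-44 for *Fos* (-0.023) and *Ier3* (-0.071), in 4-18 against 3-44 for *Jun* (-0.20), *Egr1* (-0.23) and *Myc* (-0.40), and in 4-18 against shRNA3T for *Jun* (-0.28). Near zero it changed with cyclic loess for *Ier3* (-0.032 in 4-18, -0.026 in 3-44) and *Fos* (-0.0091 in 3-44), and with array weights for *Ier3* (-0.016 in 4-18, -0.058 in 3-44) and *Fos* (-0.0013 in 3-44).

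Leaving out 1 array changed the sign of differences near zero, which ranged for 3-44 from -0.41 to 0.11 (*Atf3*), -0.044 to 0.069 (*Fos*) and -0.0535 to 0.061 (*Ier3*), for 4-18 from -0.12 to 0.081 (*Ier3*) and -0.0235 to 0.16 (*Junb*), and for shRNA3T from -0.015 to 0.19 (*Junb*). Without replicate 1 of every group, the array with the lowest *Pdrg1*, *Ier3* was -0.071 in 4-18 and -0.0071 in 3-44, *Junb* was -0.021 in shRNA3T and 0 members were called in 3-44.

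The count of members called at 2-fold was 0, 1 and 0 in 4-18, 3-44 and shRNA3T. It became 2 in 4-18 with median centring (4 relative to the median probe) and 4 on the deposited values, and 0 in 3-44 with the probes of a gene averaged. Leaving out 1 array moved it between 0 and 1 in 4-18, 3-44 and shRNA3T and in 4-18 against 3-44 and shRNA3T. Those last comparisons gave 1 and 1 with centring (2 and 2 relative to the median probe) and 1 and 2 on the deposited values. A fold limit of 1.5 gave 1, 2 and 2 against CN-10 and 2 and 1 for 4-18 against 3-44 and shRNA3T, and no fold limit gave 1, 2, 4, 3 and 1, and 1 for 3-44 against shRNA3T. Shares of all gene names are given above for the main fit only, at 2-fold and without a fold limit. The counts under the other settings therefore have no background to be set against.

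Of the 141 other genes, 17, 2 and 11 were called in 4-18, 3-44 and shRNA3T, alternatives added after seeing the data. Centring relative to the median probe gave 33 in 4-18, the deposited values gave 32, 1 and 3, a fold limit of 1.5 gave 37, 12 and 20, and no fold limit 47, 19 and 32. In 3-44, no background subtraction, the processed signal and array weights gave 4 each, and array weights gave 7 in shRNA3T. Leaving out 1 array gave 15 to 19, 2 to 3 and 6 to 11. Here too, only the main fit at 2-fold and without a fold limit has a share of all gene names beside it.

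Replicate numbers were not used as pairs, since same-numbered arrays correlated as low as -0.13, but 11 of 16 arrays correlated best with their own number, and the median correlation was 0.15 for like and -0.03 for unlike numbers, a hint of pairing in the data. With the replicate number as a block, *Jun* in 4-18 against CN-10 kept 0.48 with a limma adjusted p of 0.00372, *Dusp1* in shRNA3T kept 0.42 with 0.0555, *Egr1* and *Ier3* in 4-18 against shRNA3T passed the threshold (0.53 with 0.0323, 0.27 with 0.0494), and no count of members called at 2-fold changed. Signal over background limits *Fos* and *Dusp1*, and no difference of *Fosl1*, above background on no array, is given.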

Other observations

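The 5 gene names whose brightest probe, among 11075 well above background on all 16 arrays, followed *Egr1* most closely were *Podxl* (Pearson r 0.85), *Cyr61* (0.85), an unnamed transcript, an unnamed probe and *Slc35c1* (0.81). The correlation is over arrays of 4 groups and is a description. *Podxl*, which encodes podocalyxin, was lower than in CN-10 by -2.19 in 3-44 and -2.24 in shRNA3T, and *Cyr61*, a matricellular protein gene, by -0.95 and -1.05. In 4-18 their differences were -0.64 and -0.13. Among arrays of the same group, the median correlation of deviations from the group means was 0.22 over the 36 pairs of the 9 members with signal above background, beside 0.0087 over pairs of all 12590 probes well above background, with no value set aside, on every array. The closest pairs were *Fos* with *Myc* (0.80) and *Jun* with *Ier3* (0.71). The 2 sets are unlike, since *Fos* and *Dusp1* were not well above background on every array. Differences between replicate numbers were left in the deviations, and whether the genes move together was not tested. *Jun* and *Ier3* each read highest in replicate 1 of all 4 groups.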
